A study of Mus musculus with 9 samples.

Results

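The regions called on day 8 only are stretches of open chromatin that had a peak in all 3 lists of day 8 and in none of the 6 lists of day 4 and day 21. They numbered 678 of 62963 union regions, where a union region is a run of peaks from any of the 9 lists that share at least 1 base, on chromosomes 1 to 19 and X. The libraries were ATAC-seq, in which the Tn5 transposase cuts and tags accessible DNA, of mouse CD8 T cells from lymph nodes draining a melanoma. The donor cells were P14 cells, CD8 T cells with a transgenic T cell receptor for the GP33-41 peptide of the lymphocytic choriomeningitis virus (LCMV) glycoprotein on H-2Db, and they came from TCF-1-GFP reporter P14 mice as naive CD44- GFP+ cells. In all groups, 500000 of them were given to C57BL/6 mice 8 days after subcutaneous B16.Gp cells, which are B16.F10 melanoma cells that express that glycoprotein. CD45.1+ CD44+ CD8 T cells were sorted from the nodes 4, 8 or 21 days after transfer, with 3 libraries a day and 50000 cells in each. The genotype is given as WT, and whether each library had its own animal is not in the labels, so a p-value here measures the spread between these libraries, which may be technical.

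Accessible DNA marks promoters, where transcription starts, and enhancers, distal elements that bind transcription factors and act on genes at a distance. After antigen contact, CD8 T cells open and close many such elements while they divide and take on effector, memory or exhausted states. A promoter in a CpG island can be open in most cell types, whereas distal elements differ more between states. An ATAC-seq peak shows that DNA is accessible and does not name the factor bound there or the gene it acts on.

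Among the promoters with a peak in all 3 day 8 lists and in no other, 6 sequences are shown, because both their position and their letters are known here to the base. A missing call on another day does not show that a promoter was closed then. They are the strongest 6 of 9 protein-coding promoters whose 250 bases before the start site held the summit, the highest point of the peak, in each day 8 list. Each line gives the stretch of those bases that lies inside the region, 5′ to 3′ on the strand of the gene, from RefSeq on GRCm38.p6, the assembly of mm10. Capitals mark matches, on either strand, to any of 16 short motifs that are listed with the motif shares.
Cd81: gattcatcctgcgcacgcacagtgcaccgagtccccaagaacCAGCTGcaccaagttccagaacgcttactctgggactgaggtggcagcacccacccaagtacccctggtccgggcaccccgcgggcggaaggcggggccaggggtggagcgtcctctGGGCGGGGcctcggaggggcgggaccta
Ltbr: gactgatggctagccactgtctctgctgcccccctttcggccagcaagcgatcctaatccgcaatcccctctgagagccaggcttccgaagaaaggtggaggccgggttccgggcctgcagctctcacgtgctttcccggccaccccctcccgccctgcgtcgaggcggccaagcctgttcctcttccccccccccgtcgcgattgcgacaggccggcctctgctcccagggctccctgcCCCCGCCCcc
Sgsm1: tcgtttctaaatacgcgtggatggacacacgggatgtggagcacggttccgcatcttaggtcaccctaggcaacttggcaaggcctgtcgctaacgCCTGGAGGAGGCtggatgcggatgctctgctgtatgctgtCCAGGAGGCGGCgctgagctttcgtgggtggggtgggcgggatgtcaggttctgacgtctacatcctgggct
Shroom3: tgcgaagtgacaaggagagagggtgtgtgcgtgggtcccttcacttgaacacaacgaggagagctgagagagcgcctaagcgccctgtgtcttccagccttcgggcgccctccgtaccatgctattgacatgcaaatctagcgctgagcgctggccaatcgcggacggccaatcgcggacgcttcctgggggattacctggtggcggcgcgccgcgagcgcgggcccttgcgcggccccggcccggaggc
Exph5: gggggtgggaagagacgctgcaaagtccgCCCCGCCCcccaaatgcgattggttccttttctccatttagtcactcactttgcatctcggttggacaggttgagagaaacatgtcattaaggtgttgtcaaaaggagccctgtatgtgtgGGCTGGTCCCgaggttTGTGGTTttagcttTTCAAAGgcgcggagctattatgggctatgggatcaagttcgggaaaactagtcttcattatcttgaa
Mc1r: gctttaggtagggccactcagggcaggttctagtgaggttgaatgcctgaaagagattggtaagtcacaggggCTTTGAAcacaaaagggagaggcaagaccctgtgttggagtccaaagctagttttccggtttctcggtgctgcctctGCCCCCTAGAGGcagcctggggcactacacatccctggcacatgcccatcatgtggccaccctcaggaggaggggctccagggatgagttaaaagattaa

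Cd81 encodes a tetraspanin of the surface of lymphocytes and other cells, and its stretch is chr7:143052563-143052749 on the plus strand, ending at the base before the start site. Ltbr encodes the lymphotoxin beta receptor, known mainly from stromal and myeloid cells of lymphoid tissue, and its stretch is chr6:125313886-125314135 on the minus strand. The stretches of Sgsm1, which encodes a modulator of small G proteins (chr5:113310787-113310994, minus strand), and of Shroom3, an actin-binding protein of epithelia (chr5:92897743-92897992, plus strand), follow. Exph5 encodes a partner of the vesicle protein Rab27 (chr9:53301420-53301667, plus strand), and Mc1r the melanocortin receptor of pigment cells (chr8:123406832-123407081, plus strand). In base composition, 68.4% of the Cd81 stretch was G or C, with 13 CpG pairs in 187 bases, and 66.0% of the Shroom3 stretch, with 27 CpG pairs in 250 bases. The Mc1r stretch had 2 CpG pairs in 250 bases and 54.4% G or C. A match to the KLF/SP letters lies in the Cd81, Ltbr and Exph5 stretches, a match to the CTCF letters in those of Sgsm1 and Mc1r, and no match to any of the 16 in that of Shroom3. Summit fold enrichment, the authors' ratio of reads at the summit to the local background of the same library, was 5.19, 4.45 and 4.61 at Cd81 in day 8 lists 1, 2 and 3, and 3.23, 3.66 and 3.56 at Mc1r.

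The 9 lists differed in length, which bears on every count of calls. On day 4 they held 19499 to 22250 peaks, on day 8 47513 to 50835 and on day 21 46492 to 51671. Total reads are not part of the lists. As a stand-in for depth, the lowest local background among the peaks was 2.62 to 3.38 tags on day 4, 2.14 to 2.63 on day 8 and 2.33 to 3.08 on day 21, and the ranges of the days overlapped. At that background the day 8 lists reached down to summits of 8 or 9 tags and the day 21 lists to 9 or 10. The part of depth in the calls was not tested. At the loci of 9 genes that mark CD8 T cells (Cd3d, Cd3e, Cd3g, Cd247, Cd8a, Cd8b1, Cd2, Cd5 and Lck), 27 to 31 of 86 union regions were called on day 4, 64 to 67 on day 8 and 60 to 72 on day 21, and no such locus was without a called region. A locus here is a gene's body plus the regions outside genes that lie nearest to it within 100 kb.

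Members were chosen by the calls in the 9 lists, which rest on the measured −log10 q of each peak, so their count is a description. The 678 regions made up 1.08% of all union regions. The same rule turned to the other days gave 619 regions called on day 21 only, 0.983% of all, and 3 called on day 4 only, 0.00476%. In pairs of days, 16206 regions (25.7%) had a call in each day 8 list without any on day 4. In each day 8 list but no day 21 list, 688 regions (1.09%) had a call, among them every member, and for 640 (1.02%) the reverse held. With fewer lists to satisfy, the members numbered 1332 and 1297 without day 8 list 1 or 2, 1043 without day 8 list 3 and 1394 without day 21 list 3.

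Day 8 only regions were the end of a graded series. Among regions with 3 day 8 calls and no day 4 call, 678 had a call in none of the day 21 lists, 1186 in 1, 2248 in 2 and 12094 in all 3. Their median summit fold enrichment in the day 8 lists was 4.44 ± 0.0276 with no day 21 call (mean ± SD of 3 lists), 4.67 ± 0.0290 with 1, 4.76 ± 0.0173 with 2 and 5.47 ± 0.0465 with 3. The fewer day 21 lists that called a region, the weaker it was in the day 8 lists. The median width of the union region was 331, 356, 396.5 and 502 bases over the same steps, but each further call adds a peak to the merged region, so this width says nothing of the peaks on day 8. Turned round, regions with 3 day 21 calls and no day 4 call had the same shape, with 619, 1069, 2131 and 12094 regions by number of day 8 calls and a median fold enrichment on day 21 of 4.28 ± 0.108 where no day 8 list called them and 5.41 ± 0.05005 where all did.

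**Figure D1:**
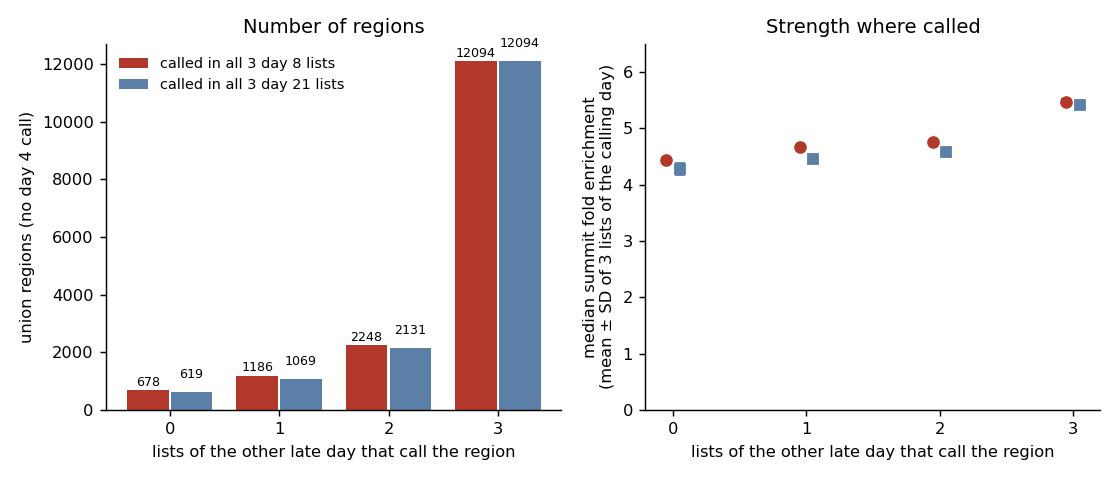
Left, number of union regions without a day 4 call that were called in all 3 day 8 lists (red) or all 3 day 21 lists (blue), by how many lists of the other late day also called them. Right, their median summit fold enrichment in the calling day's lists (mean ± SD of 3 lists, most error bars being smaller than the point), which climbs from 4.44 to 5.47 for day 8 and from 4.28 to 5.41 for day 21 as the calls of the other day go from 0 to 3.

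How far the members lay from the threshold also shows in the regions that just missed the rule. Another 1186 regions had calls in every day 8 list and in exactly 1 day 21 list, and for 713 of these that list was day 21 list 3, the longest of the 9, against 258 for list 1 and 215 for list 2. Only 7 regions had all day 8 calls and exactly 1 day 4 call with no day 21 call. On the other side, 1599 regions were called in exactly 2 day 8 lists and no other, and 5145 in exactly 1. The weakest members by mean −log10 q were at Gal, which encodes the neuropeptide galanin (chr19:3414438-3414752, −log10 q of 1.90, 2.47 and 2.50 in day 8 lists 1, 2 and 3), at Il11, a cytokine gene (chr7:4779663-4780069; 2.69, 2.94 and 2.44), and 19.3 kb from Maf, which encodes a transcription factor of helper T cells (chr8:115726232-115726541; 1.95, 2.61 and 3.6). Just outside the rule were regions 9.75 kb from Nyap1 (chr5:137720776-137721131), in the body of Rapgef5 (chr12:117678947-117679330) and 120.3 kb from Tle3 (chr9:61251627-61252030), each called in day 21 list 3 alone of the other lists, with −log10 q there of 1.39, 2.00 and 2.00. On day 8 the Nyap1 region had a −log10 q of 12.9, 6.91 and 7.42, well above the weakest members.

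In strength, day 8 only regions sat near the bottom of the lists that called them. Their summit fold enrichment ranged between 2.33 and 7.97 in day 8 list 1 with a median of 4.46, between 2.45 and 8.37 in list 2 with a median of 4.46, and between 2.33 and 8.00 in list 3 with a median of 4.41. The summit pileup, the number of tags that overlap the summit, had medians of 16, 17 and 18 tags. Ranked by −log10 p with the strongest peak first, the median member stood 81.3%, 81.9% and 78.4% of the way down the 3 lists. The number of members above the middle of a list was 19, 14 and 21, and the best placed ranked 18871, 16638 and 18820. Beside this median place of 80.5% ± 1.86 (SD, n = 3 lists), regions called on day 21 only stood at 80.2% ± 2.84 in the day 21 lists. In the day 8 lists, regions called in every late list but never on day 4 stood at 58.5% ± 2.40 and regions called in all 9 lists at 15.7% ± 0.561. These levels were part of what chose the members and carry no test.

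Inside a member, the summits of the 3 day 8 lists lay close together, which the rule partly sets. A member must hold a peak of every day 8 list in 1 merged region, of median width 331 bases, and this bounds the distance between summits. Both measures below rest on the calls that chose the members. The summits of a member lay within a median of 50 bases of each other, and within 150 bases for 86.1% of members, against a median of 43 bases for regions called in all late lists and 28 bases for regions called in all 9. The highest fold enrichment of a member was a median of 1.22 times its lowest, and at most 1.96 times. For regions called in all late lists the median ratio was 1.23, and for regions called in all 9 it was 1.12.

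**Figure D2:**
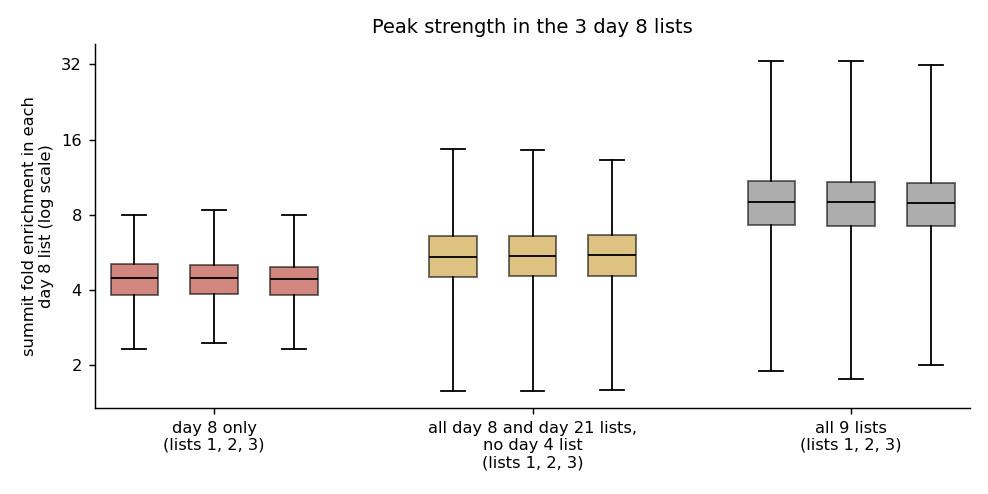
Summit fold enrichment (log scale) in each of the 3 day 8 lists for 678 day 8 only regions, 12094 regions called in every day 8 and day 21 list but never on day 4, and 15109 regions called in all 9 lists. Boxes span the quartiles with the median as a line, and whiskers reach the lowest and highest region, so the day 8 only regions end at 8.37 while the other sets go on to higher values.

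Of the 12 strongest day 8 only regions, 8 lay inside a gene, beside 58.3% of all members and 64.1% of union regions. The highest mean fold enrichment was in the body of Usp2, which encodes a deubiquitinating protease, at chr9:44076774-44077114, with 6.51, 8.37 and 7.93 in day 8 lists 1, 2 and 3 and summits of 24, 33 and 32 tags. A region inside Map4, a microtubule-associated protein (chr9:110071907-110072241), had 7.58, 6.48 and 7.97. A region inside Utrn, the dystrophin relative utrophin (chr10:12534147-12534644), had 7.65, 7.69 and 6.62. No list was the highest at all of these regions, and the SD over lists was 0.974 at Usp2, 0.774 at Map4 and 0.610 at Utrn. Next came a region 20.02 kb from Rnft1, a membrane protein with a RING finger (chr11:86464268-86464633), with 7.34, 6.84 and 7.44.

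The widest spread between lists among the first 8 was at Aph1b and Myzap. Inside Myzap, a protein of cell junctions (chr9:71543446-71543734), day 8 list 2 was highest with 8.16, against 6.28 in list 1 and 6.13 in list 3. Inside Aph1b, a subunit of gamma-secretase (chr9:66784609-66784902), list 1 was lowest with 5.10, against 7.73 and 7.17. Slc9a2, a sodium-proton exchanger, held a region at chr1:40768588-40768979 with 7.02, 6.54 and 6.89. The kinase gene Sgk1, which acts downstream of PI3K and mTORC2 in T cells, had a region 10.3 kb past its end (chr10:22010189-22010496) with 7.55, 6.00 and 6.51. The other regions of the 12 strongest were inside Btrc (chr19:45436103-45436384) and Pitpnc1, a phosphatidylinositol transfer protein (chr11:107385330-107385760), 4.21 kb from Dpy30, a subunit of histone H3 methyltransferase complexes (chr17:74328152-74328460), and 3.21 kb from Vdac3, a channel of the outer mitochondrial membrane (chr8:22573572-22573865). Their mean fold enrichment was 6.44 to 6.57. None of these 12 genes is in the T cell lists used here. The widest member spanned 896 bases in the shared body of Eif4e3 and Gpr27 (chr6:99692098-99692993) and had a fold enrichment of 4.55, 4.03 and 4.02, so width and strength did not go together there.

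Members were spread over many genes. The 652 members that could be placed lay at 626 genes, 594 of them with 1 member, 29 with 2 and 3 with 3. The genes with 3 were Btrc, Fam168a and Foxf2. Btrc encodes the F-box protein that brings phosphorylated substrates such as the NF-kB inhibitor IkB-alpha to a ubiquitin ligase. Its locus had 2, 2 and 2 called regions in the day 4 lists, 6, 6 and 6 in the day 8 lists and 4, 3 and 3 in the day 21 lists, members included. By the rule, each member adds 1 called region to every day 8 list and none to the others, so 3 of the 6 on day 8 were set by the choice of members. The Fam168a members lay together upstream of the gene, 12.9 to 21.7 kb from it, at chr7:100684631-100684947, chr7:100685671-100685990 and chr7:100693091-100693685. Their fold enrichment was 6.37, 6.72 and 5.32, then 5.41, 5.80 and 6.28, then 6.67, 6.00 and 6.18, above the median member in every list. Foxf2, a forkhead factor known from mesenchymal cells, had no called region on day 4 or day 21 and 3, 4 and 3 on day 8, and 3 of its 4 union regions were members. At Ccdc42, whose product is known from sperm flagella, both union regions were members, inside the gene (chr11:68589468-68589760) and 25.5 kb from it (chr11:68623454-68623892). Of the 626 genes with a member, 45 had no union region other than members, beside 16070 genes with any union region. The same count for day 21 only regions is not given here, so the 45 are a description.

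Clusters of members were rare. Only 11 members (1.62%) lay within 10 kb of another and 107 (15.8%) within 100 kb, beside 17 (2.75%) and 104 (16.8%) of the 619 regions called on day 21 only. Of the 626 genes with a day 8 only region, 24 also had a day 21 only region, which is 3.83% of the 626 and 4.57% of the 525 genes with a day 21 only region. Of all 16070 genes with a union region, 3.27% had a day 21 only region and 3.90% a day 8 only region.

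The position of members relative to genes was not used by the rule. A gene end here is either limit of a gene, its start or its end, so regions at start sites are counted. Within 1 kb of a gene end lay 102 of 678 members, 15% (95% exact Clopper-Pearson interval 12.4% to 18%, counting error only), against 39 of 619 regions called on day 21 only, 6.30% (4.52% to 8.51%). The share was 12.7% in regions called in every late list but never on day 4, 52.9% in regions called in all 9 lists and 22.4% in all union regions. Regions of a set share their libraries, so these intervals describe counts of regions and are no test between days. RefSeq promoter windows, 250 bases before to 50 after a start, were touched by 40 of 670 members on chromosomes with windows (5.97%), against 9 of 594 day 21 only regions (1.52%), 7.47% of regions called in all late lists and 16.9% of union regions. More than 100 kb from any protein-coding gene were 26 members, 3.83% (2.52% to 5.57%), against 55 day 21 only regions, 8.89% (6.76% to 11.4%), and 4.71% of union regions. Bodies of genes held 58.3% of members, 55.1% of day 21 only regions and 64.1% of union regions.

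**Figure D3:**
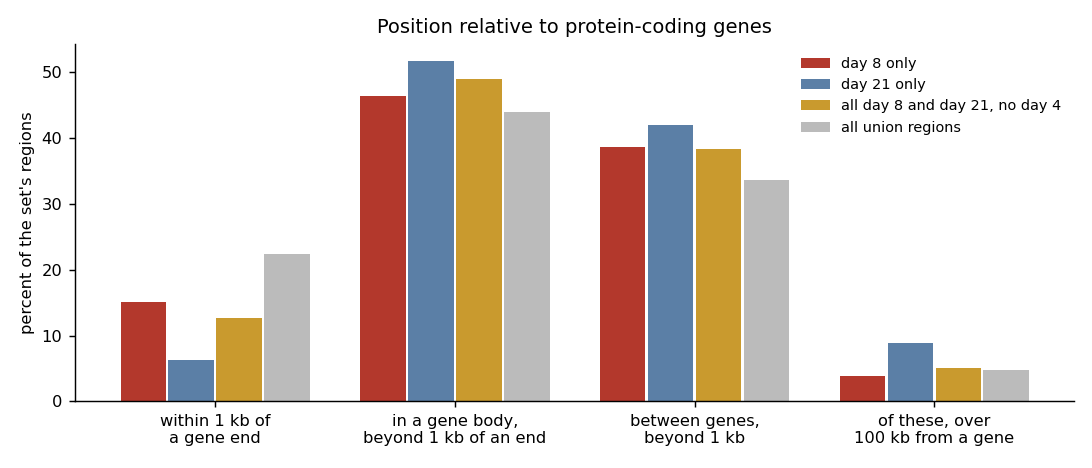
Share of each set, in percent, by position relative to protein-coding genes, for day 8 only regions (678), day 21 only regions (619), regions called in every day 8 and day 21 list but never on day 4 (12094) and all union regions (62963). The first 3 groups of bars add up to all regions of a set, and the last is the part of the between-gene regions that is over 100 kb from a gene, where day 8 only regions reach 3.83% and day 21 only regions 8.89%.

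Day 8 only regions were also placed differently along the genome than day 21 only regions. A member had a median of 14 protein-coding genes within 500 kb on each side (quartiles 8 and 23), a day 21 only region 7 (4 and 11) and a union region 11 (6 and 19). Chromosome 11, a gene-rich mouse chromosome, held 72 members, 10.6%, against 28 day 21 only regions, 4.52%, and 7.21% of union regions. Chromosome 9 held 7.96% of members, 5.01% of day 21 only regions and 5.61% of union regions. Chromosome X held 5 members, 0.737%, against 26 day 21 only regions, 4.20%, and 1.98% of union regions. Chromosome 18 held 8 members, 1.18%, against 25 day 21 only regions, 4.04%, and 2.97% of union regions. These shares are counts of regions from the same 9 libraries and carry no test.

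**Figure D4:**
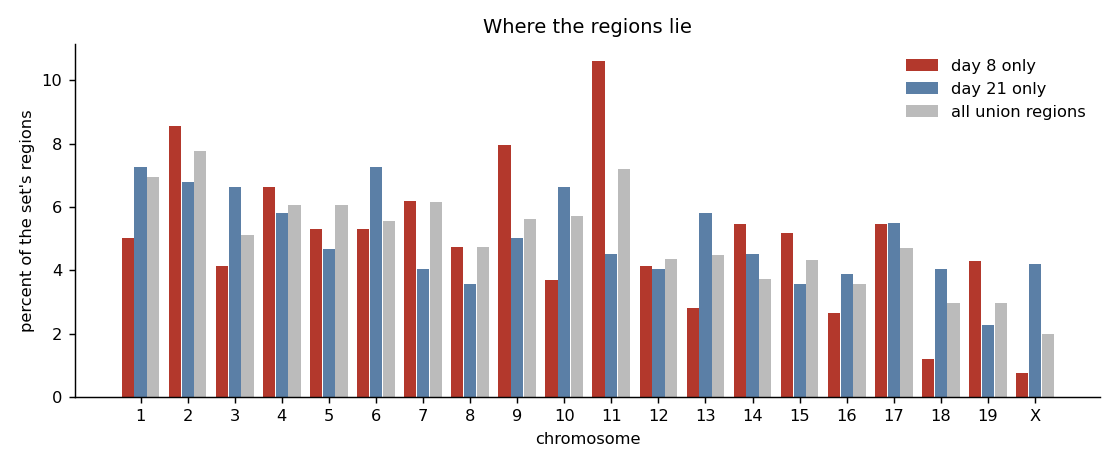
Percent of day 8 only regions (red), day 21 only regions (blue) and all union regions (grey) on each chromosome. Day 8 only regions stand highest above the grey bars on chromosome 11 (10.6% against 7.21%) and are few on chromosomes 18 and X.

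The placement was also measured in called regions that belong to neither set, with 1 value for each list. Chromosome X held 1.94%, 1.94% and 2.02% of these in the day 21 lists, against 1.87% in each of the day 8 lists. Chromosome 11 held 7.07%, 6.998% and 6.97% in the day 21 lists, against 7.57%, 7.58% and 7.50% in the day 8 lists. The lists of the days did not overlap in either measure, and the day 21 minus day 8 differences were 0.0958 and -0.538 percentage points. The mean number of genes within 500 kb was 14.9 ± 0.129 in day 21 lists and 15.3 ± 0.112 in day 8 lists (SD, n = 3 each), and the share over 100 kb from a gene was 4.44% ± 0.165 and 4.16% ± 0.0942. Each of these 4 differences had p = 0.1 in a two-sided exact permutation test, the smallest that 3 against 3 lists allow (0.111 by Benjamini-Hochberg over 10 tests), so none could pass 0.05. For the share within 1 kb of a gene end, 26.5% ± 1.11 in day 21 lists and 26.8% ± 0.713 in day 8 lists, the exact p was 0.7. Between day 8 and day 4 the order of some measures was another. The share on chromosome X was 1.87% ± 0.000921 in day 8 lists and 1.99% ± 0.0422 in day 4 lists, and that within 1 kb of a gene end 26.8% ± 0.713 and 46.1% ± 2.15 (exact p = 0.1, adjusted 0.111, for each).

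The surroundings of members, which the rule did not use, were compared between days. With 3 against 3 lists no difference could pass 0.05, whatever the values. Of all other called regions of a list, those at loci with a day 8 only region made up 5.40%, 5.27% and 5.54% in the day 4 lists, 6.24%, 6.29% and 6.32% in the day 8 lists and 6.08%, 6.05% and 6.02% in the day 21 lists. The day 8 lists were highest and did not overlap those of the other days. The difference was -0.230 percentage points for day 21 minus day 8 and 0.875 for day 8 minus day 4 (each exact two-sided permutation p = 0.1, the smallest possible, and 0.2 after Benjamini-Hochberg adjustment over 4 tests). Loci with a day 21 only region gave the mirror order, so a highest share on the chosen day was not particular to day 8. Their share was 7.43% ± 0.0378 in day 21 lists, 6.93% ± 0.0367 in day 8 lists and 6.65% ± 0.0903 in day 4 lists. For 549 regions called in all 9 lists that were nearest to a member within 100 kb, the mean rank among such regions, on a scale where 100 is the strongest, was 48.9 ± 0.0565 on day 4, 48.7 ± 0.233 on day 8 and 48.4 ± 0.0910 on day 21 (SD, n = 3 lists each). The differences were -0.263 for day 21 minus day 8 (exact permutation p = 0.2, adjusted 0.267) and -0.189 for day 8 minus day 4 (p = 0.3, adjusted 0.3, exact permutation test). Both were of the size of the spread between lists of a day, and in both the direction turned under another setting given in the closing section. The nearest union region lay a median of 5.91 kb from a member, against 4.16 kb for day 21 only regions and 4.79 kb for union regions. For regions called in all 9 lists this distance was 5.44 kb. Another region lay within 1 kb of 20.2% of members, 19.1% of regions called in all 9 lists and 22.0% of union regions. The nearest region called in all 9 lists was a median of 27.2 kb from members, 21.1 kb from day 21 only regions and 21.9 kb from union regions.

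Genes of T cell function held day 8 only regions at about the rate of other genes. At the 236 genes of 9 T cell lists, 21 of 2265 union regions (0.927%) were members, at 19 genes, beside 652 of 59996 (1.09%) over all genes. The count was 42, 35 and 47 without day 8 list 1, 2 or 3, and 32 and 42 without day 21 list 1 or 3, since the rule then asks for fewer lists. The regions called on day 21 only numbered 26 (1.15%) at the same genes and 564 (0.940%) over all genes. By list, 5 of 267 regions at genes of inhibitory receptors and exhaustion were members, 4 of 268 for cytokine and TGF-beta signals, 3 of 201 for effector differentiation, 3 of 324 for CD8 T cell identity, 2 of 221 for homing and residency, 2 of 496 for memory and stemness, 1 of 263 for early activation, 1 of 105 for cell division and 0 of 132 for the interferon response. Constitutively expressed genes had 0 of 76.

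Effector genes had members at Zeb2, Id2 and Bhlhe40. Zeb2 encodes a zinc finger repressor that promotes terminal effector CD8 T cells, and its member lay 21.6 kb upstream (chr2:45138997-45139220) with a fold enrichment of 5.42, 5.35 and 4.41 in day 8 lists 1, 2 and 3. Its locus had 1, 1 and 3 called regions on day 4, 9, 9 and 9 on day 8 and 7, 7 and 8 on day 21, the member included. Id2, an inhibitor of E proteins that effector cells need, had a member 2.67 kb upstream (chr12:25098764-25099012) with 3.93, 3.6 and 3.08. Its locus counts were 3, 1 and 3 on day 4, 9, 9 and 8 on day 8 and 7, 7 and 7 on day 21, the member included. Without the members, the day 8 counts were 8, 8 and 8 at Zeb2 and 8, 8 and 7 at Id2, which overlapped those of day 21. Bhlhe40, a basic helix-loop-helix repressor of activated T cells, had one 5.22 kb from the gene (chr6:108672143-108672484) with 4.17, 3.16 and 3.50. The Id2 summit was high in tags, with 40, 41 and 37, and low in fold enrichment.

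Among inhibitory and exhaustion genes, Tox2, a relative of the exhaustion factor TOX, held a member in its body (chr2:163285700-163286094) whose fold enrichment differed most between lists, 3.83, 5.94 and 7.17. Nfatc1 and Nfatc2 encode calcium-dependent factors of T cell receptor signalling. The Nfatc2 member, in the body at chr2:168578312-168578538, had 3.05, 3.38 and 3.30, and the Nfatc1 member, 5.37 kb from the gene at chr18:80600395-80600834, had 3.72, 3.44 and 3.50. Spry2 encodes an inhibitor of receptor signals to MAP kinases and had a member 26 kb upstream (chr14:105922844-105923273; 4.15, 4.46 and 4.14). The member in the overlapping bodies of Vsir, the inhibitory receptor VISTA, and Cdh23 (chr10:60350881-60351102; 3.68, 2.91 and 2.91) cannot be given to either gene. In the same list, 4 of 267 regions were called on day 21 only, at Ctla4, Nt5e, Pdcd1 and Vsir, beside the 5 day 8 only regions. Of these 4 genes, Vsir alone also held a day 8 only region.

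In the early activation list, Il2ra, the high-affinity IL-2 receptor chain CD25, held a member in its body (chr2:11655408-11655684) with a fold enrichment of 3.42, 4.20 and 3.74 and summits of 30, 36 and 33 tags. In the list of cytokine and TGF-beta signals, Stat5b, which carries IL-2 and IL-15 signals, held one in its body (chr11:100840888-100841199; 3.44, 4.08 and 3.43). So did Stat4, which carries IL-12 signals (chr1:52055826-52056269; 4.69, 4.47 and 3.81). Smad3, which carries TGF-beta signals, was the gene of these lists with the largest number of members beside Bcl11b, with 2 each. The stronger Smad3 member lay 79.3 kb upstream (chr9:63837247-63837784; 4.83, 4.35 and 3.36). With members included, the locus had 5, 5 and 9 called regions on day 4, 20, 19 and 21 on day 8 and 15, 15 and 16 on day 21. With members left out of the counts, the day 21 and day 8 lists overlapped at 18 of the 19 T cell genes with a member. Smad3 was the other, with 15, 15 and 16 on day 21, against 18, 17 and 19 on day 8, while Nfatc1, for example, had 19, 20 and 21 on day 21, against 16, 18 and 23 on day 8.

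T cell identity genes with a member were Cd8a and Bcl11b. The Cd8a member lay 9.12 kb upstream of the gene for the CD8 alpha chain (chr6:71363788-71364303) with 4.58, 3.48 and 4.23. Its locus had 4, 4 and 4 called regions on day 4, 5, 6 and 6 on day 8 and 4, 5 and 5 on day 21, the member included. Without the member, the day 8 lists had 4, 5 and 5, the same as on day 21. Bcl11b, a factor that keeps T lineage identity, had members 2.03 kb (chr12:108006175-108006577; 3.53, 3.56 and 3.54) and 18.8 kb (chr12:108022924-108023523; 3.8, 3.59 and 4.38) outside the gene. The nearer one was almost equal in the 3 lists.

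Of homing and residency genes, Rora, a nuclear receptor of innate lymphoid and tissue T cells, held the strongest member of all T cell lists in its body (chr9:68957002-68957267), with 6.06, 5.80 and 5.53. Itgae, the CD103 integrin chain that binds E-cadherin, had one 1.03 kb from the gene (chr11:73148477-73148751; 4.15, 3.69 and 4.96). The members of the memory and stemness list were 40.7 kb past Foxo1, a factor of T cell quiescence and memory (chr3:52390819-52391153; 3.69, 4.30 and 3.76), and in Tcf12, the E protein HEB (chr9:71976080-71976370; 4.47, 4.76 and 4.41). Mcm5, a subunit of the replicative helicase, had a member 4.11 kb past the gene (chr8:75132549-75132832; 3.77, 5.00 and 5.85). Its locus had 1, 1 and 1 called regions on day 4, 2, 2 and 2 on day 8 and 1, 1 and 1 on day 21, the member included. Without the member, the day 8 lists had 1, 1 and 1.

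**Figure D5:**
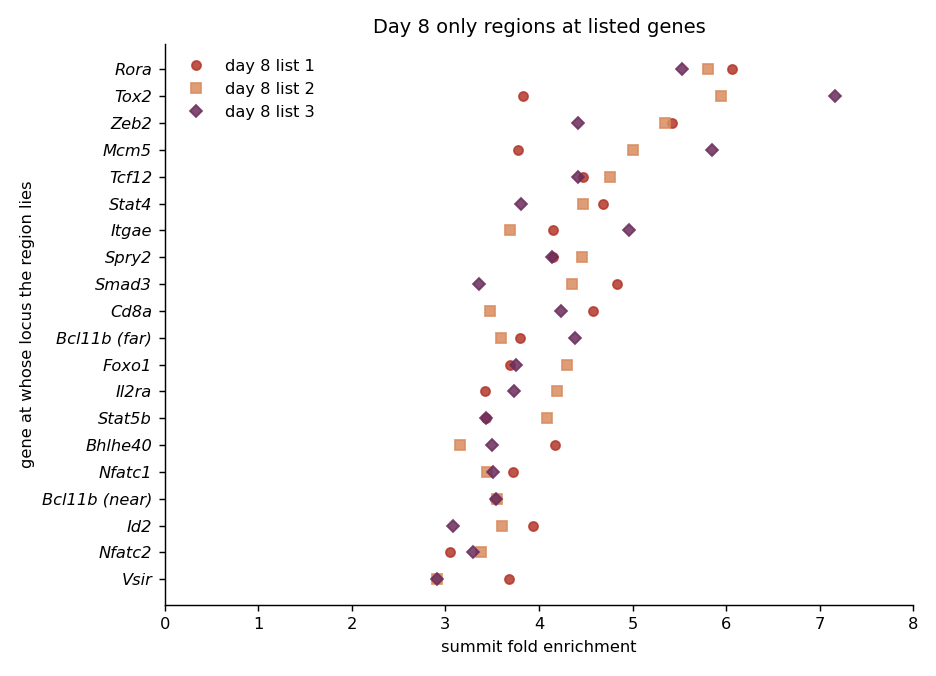
Summit fold enrichment in day 8 lists 1, 2 and 3 (circle, square, diamond) at the 20 strongest of the 21 day 8 only regions at genes of the T cell lists, ordered by their mean. The spread between lists is widest at Tox2 (3.83 to 7.17) and narrowest at the nearer Bcl11b region (3.53 to 3.56).

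Genes that mark other cell types held 4 members of 225 union regions (1.78%), at Blk, Itgax and Maf, beside 0.927% at the T cell genes and 1.09% over all genes. Regions called on day 21 only numbered 3 (1.33%). Blk, a Src family kinase of B cells, had 2, at its edge (chr14:63372509-63372820; 4.95, 4.47 and 4.24) and in its body (chr14:63416699-63417289; 3.77, 3.86 and 4.40). Itgax, the CD11c integrin chain of dendritic cells, had 1 in its body (chr7:128137399-128137892; 4.64, 4.77 and 4.05). The 12 B cell genes together had 5 to 7 of 36 regions called on day 4, 25 in every day 8 list and 23 to 30 on day 21, with 7, 2 and 2 of the 12 at 0 in all lists of the day, Ms4a1, which encodes CD20, among them on all 3 days. The 13 myeloid genes had 10 to 14 of 50 regions called on day 4, 35 to 39 on day 8 and 35 to 39 on day 21, with 7, 3 and 1 of the 13 at 0 in all lists of the day, Lyz2 on all 3 days. As at the CD8 markers, calls at these loci were fewest in the short day 4 lists, and their part in the members was not tested.

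The promoter windows of members were rich in G and C. The median was 65.8% over 40 windows (quartiles 60.8% and 71.9%), against 59.0% over the 9 windows of day 21 only regions, 59.3% over 876 of regions called in every late list but never on day 4, 62.0% over 7211 of regions called in all 9 lists and 53.0% over all 32619 RefSeq windows. The median ratio of observed to expected CpG was 0.754 in member windows, against 0.556 in day 21 only windows, 0.807 in windows of regions called in all 9 lists and 0.387 in all windows, and the ratio exceeded 0.6 in 70.0%, 33.3%, 81.3% and 36.0% of these sets. Besides the genes whose sequence is shown, they included Pparg, a nuclear receptor of fat cells and macrophages (fold enrichment 3.51, 5.28 and 6.01), Crispld2 (3.89, 6.38 and 5.26), Tnfrsf19 (4.15, 5.05 and 3.86), Zic5, a neural zinc finger factor (4.27, 3.30 and 3.67), and Hrh1, a histamine receptor (3.22, 4.19 and 4.36). These 5 were picked after their values were seen, and transcription was not measured.

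A motif match describes letters only. The KLF/SP letters, GGGCGGGG, were in 37.5% of member windows, against 37.3% of windows of regions called in all 9 lists and 17.7% of all windows. The CTCF motif was matched in 25% of member windows (10 of 40), against 14.3% and 8.67%, and the NF-kB motif in 35% of them, against 27% and 20.9%. For the ETS letters CCGGAAG the order was the other way, with 2.50% of member windows (1 of 40), 21.5% of windows of regions called in all 9 lists and 8.92% of all windows. The E-box letters CAGGTG, which ZEB factors can bind, were in 25%, 16.6% and 20.3% of these sets. Another E-box, CAGCTG, was in 15%, 13.7% and 16.4%. The AP-1 letters TGANTCA were in 1 member window and 7.85% of all windows. The RUNX letters TGTGGTT were also in 1, against 5.29% of all windows. In 2 member windows each lay the TCF/LEF letters CTTTGAA and those of the STAT motif, TTCNNNGAA, and in 1 the NFAT letters TGGAAAA. No member window held the T-box letters AGGTGTGA, the NR4A letters AAAGGTCA, the GATA letters AGATAAG, the forkhead letters TGTTTAC or the IRF motif, which 1.28% to 3.67% of all windows held. At such low shares, none in 40 windows says little. Windows of regions called in every late list but never on day 4 held KLF/SP in 27.3%, CTCF in 16.3%, NF-kB in 27.4%, ETS in 6.51% and the ZEB E-box in 22.4%. In the 9 windows of day 21 only regions the shares were 22.2%, 11.1%, 33.3%, 0% and 22.2%. A low ETS share and NF-kB and ZEB E-box shares above those of all windows were thus also found in these sets. Both strands were searched, and matches may overlap. Each window of 300 bases was searched whole, so a match need not lie inside the member. The shares were not adjusted for the higher G and C content of member windows.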

How the data were processed

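ATAC-seq was measured in 9 libraries, and each has 1 narrowPeak list, so the authors called peaks per sample. The submitters' processing notes name the build mm10 and the tools BWA 0.7.15, Picard, deepTools 2.0 and MACS2 without their roles. Settings for read filters, a Tn5 shift or peak calls are not given in the sources used. For each peak, the deposited lists hold coordinates, a score (not used here), a fold enrichment ratio of the summit over local background, −log10 of the p and q values, and the offset of the summit. These are the authors' values per peak and served to rank or describe peaks inside their own list. Groups and replicate numbers came from the titles, since the genotype and time point tags are swapped.

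The 353295 peaks on chromosomes 1 to 19 and X were merged on 1 shared base, and 212 on Y and M were left out. Regions were set against 21627 protein-coding RefSeq genes of GRCm38.p6, the assembly of mm10. Whole summit pileups were recovered from fold enrichment and −log10 p (tolerance 0.001) for at least 99.99% of peaks of each list. Values per list were compared by two-sided exact permutation tests over 20 arrangements of 3 against 3 lists. The calls, permutation and pileup steps were tested on simulated data. Intervals and pileups cover counting error only, and PCR duplicates cannot be seen in the lists.

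The members, gene lists and motifs were chosen with earlier results of these data known. Named regions are the 12 with the highest mean fold enrichment, the 20 strongest at listed genes, genes with the most members, the widest, 3 just inside and 3 just outside the rule. Blk, Itgax, Ccdc42, Pdcd1, Ctla4, Nt5e and the genes named for their promoter windows were named after their values were seen. Of the list symbols, Zfp683 and Mx1 matched no gene and are not analysed here. As no genome was used, RefSeq promoter windows took the place of the planned motif search around summits; these have no entries for chromosome 18 and are not complete. Alternatives were a stricter q, larger overlap, equal list lengths, other distances and each list left out. Python 3.11.15, numpy 2.4.6, pandas 2.3.3, scipy 1.17.1 and matplotlib 3.10.9 were used.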

Additional observations from a re-analysis of the deposited data

How the results depend on the processing

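The count of day 8 only regions depended on how many lists had to agree. It was 1871 when 1 of the 6 other lists could also call a region (1706 for day 21 only), 152 when all lists were reduced to the 19499 strongest peaks (170), and 678 to 1394 when each list was left out in turn (621 to 1316), with 1332, 1297 and 1043 without day 8 list 1, 2 or 3 and 1394 without day 21 list 3; fewer lists loosen the rule by construction. Median fold enrichment was 4.60 when a peak had to cover 50% of a region and 4.62 with day 8 and day 21 lists reduced to 46492 peaks, and 4.22 to 4.51 with a list left out; the median place in the list was 76.5%, 76.8% and 78.5% to 83.8%. At a distance of 2 kb, 20.4% of members and 11.95% of day 21 only regions were near a gene end, and with a list left out 13.5% to 15.8% and 5.92% to 7.45% were within 1 kb. Gene bodies then held 56.7% to 60.4% of members. Members at listed T cell genes numbered 21 to 47 with a list left out, and 42, 35 and 47 without day 8 list 1, 2 or 3 and 32 and 42 without day 21 list 1 or 3. The rank of neighbours changed direction, with 0.268 for day 21 minus day 8 at 50% cover, and for day 8 minus day 4 with 0.925 at equal lengths and 0.0472 for neighbours within 50 kb; with a list left out it was -0.463 to 0.106 and -0.771 to 0.0732. The cause was not tested. The locus share was -0.390 to -0.229 for day 21 minus day 8 and 0.809 to 1.72 for day 8 minus day 4. The replicate block, a sign-flip test of same-numbered lists whose smallest p is 0.25, left the differences at -0.230 and 0.875 for the locus share (exact p = 0.25 for each) and at -0.263 and -0.189 for the neighbour rank (exact p = 0.5 for each), and correlations of deviations between same-numbered lists were -0.0131 to 0.0266, so the numbers did not pair the lists. Placement, tried under settings chosen after seeing the data, kept 9.23% to 11.5% of members on chromosome 11 and 0.733% to 1.23% on X with a list left out, beside 3.8% to 4.53% and 3.12% to 4.19% of day 21 only regions. The planned shorter motif window was not run. At 50% cover the locus share was -0.369 and 1.73, and 814 regions were called on day 8 only beside 842 on day 21 only, the reverse order; at equal lengths the neighbour rank was -0.698 for day 21 minus day 8. Depth is known only through the lowest local background of a list.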

Other observations

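Slc6a17, which encodes a transporter of neurons, had 2 members and no called region in any day 4 list, 3, 3 and 3 on day 8 and 1, 0 and 1 on day 21, members included. Zbtb16, which encodes the factor PLZF of innate-like T cells, had 2 members and 0, 1 and 0 called regions on day 4, 4, 5 and 6 on day 8 and 3, 3 and 2 on day 21, members included. Both genes were picked after their values were seen. By the rule, 2 of the called regions in each day 8 list at either gene were the members. The day 8 counts were thus partly set by the choice of members and show no opening on that day. No day 8 only region was found among the 28 union regions on chromosome Y and the 2 on the mitochondrial chromosome.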
